A study of Homo sapiens with 12 samples.

Results

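The genes described here are 33 members of the p53 pathway, chosen from a named list of p53 targets and p53 inhibitors and read through the probe sets that the platform annotation assigns to them. Of these, 31 had a probe set and all 31 entered the tests, among 18132 genes with a probe set and 16205 genes tested. FDXR and BTG2 were left out of the expression tests and were read in the promoter windows only. Total RNA of 3 human lung cancer cell lines, NCI-H1993, NCI-H1693 and NCI-H1650, was hybridised to Affymetrix PrimeView arrays after lentiviral transduction. In each line, MARK2 knockdown by short hairpin RNA (KD) was set against cells given the empty pLKO vector, so the 6 groups hold 2 arrays each and every group carries a lentiviral vector. The series design calls the 2 arrays of a group biological replicates and says that the lines were chosen for overexpressing MARK2. The labels state neither the hairpin sequences nor their number. MARK2 is a kinase that phosphorylates microtubule-associated proteins, and the series title links it to the DNA damage response and cisplatin resistance.

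The p53 protein is a transcription factor that accumulates after DNA damage and other stresses and binds paired copies of a short palindromic motif near its target genes. Its targets slow the cell cycle, adjust metabolism and repair DNA, or promote cell death, and some of them, MDM2 foremost, feed back to lower p53. In lung epithelium the pathway responds to tobacco carcinogens and to platinum drugs, and it is often inactivated in lung cancer. Many of these genes also have activators other than p53.

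The knockdown was read first from MARK2. In H1993 its log2 signal was 6.76 and 6.77 on KD arrays, against 9.17 and 9.06 on pLKO arrays, which left 19.6% of the control signal (change -2.35 ± 0.16 SE, limma adjusted p = 6.47e-06). In H1693 it was 6.62 and 6.57 on KD arrays, against 7.76 and 7.97 on pLKO arrays, or 41.6% of the control signal (change -1.27 ± 0.16 SE, adjusted p = 0.000258). In H1650 it was 5.92 and 5.37 on KD arrays, against 6.07 and 5.80 on pLKO arrays, and these groups overlapped (change -0.29 ± 0.16 SE, adjusted p = 0.156). The H1650 arrays also stood apart in RNA integrity: the 3' minus 5' log2 signal of the GAPDH control probe sets was 6.82 ± 0.07 on KD and 2.68 ± 0.56 on pLKO arrays (SD, n = 2 each), while the means of the other 4 groups lay between -0.10 and 0.00. RNA integrity therefore moved with the knockdown in H1650, and its part in the H1650 values below was not tested. Array medians lay between 7.13 and 7.32. All 5 epithelial markers were at 7 or more on every array, but some moved with the knockdown. In H1650 the mean of KRT8 was 7.19 on KD and 11.66 on pLKO arrays (change -4.47, limma adjusted p = 1.04e-07). KRT18 (-0.85) and KRT19 (-0.17) also fell there, EPCAM rose (0.45) and CDH1 did not pass (0.03). CDH1 rose in H1993 (0.85) and H1693 (0.72), and KRT19 in H1993 (0.27). The part of these changes in the results was not tested. Of the 2 leukocyte genes read, PTPRC was below the testing floor of 5 on every array and CD3E was above it on every array, at 5.81 to 6.37. The 3 endothelial markers were also above the floor on every array, at 5.46 to 7.29. The log2 of the summed linear signal of 4 fibroblast markers was 9.14 to 9.29 on KD and 8.59 to 8.74 on pLKO arrays in H1993. It was 12.82 to 12.88 and 12.07 to 12.09 in H1693, and 11.29 to 11.35 and 10.85 to 10.92 in H1650. This sum, to which bright genes add most, moved with the knockdown in each line, and its part in the results was not tested. Gene by gene, LUM rose past the threshold in each line and PDGFRB in none. LUM lay below the floor of 5 on all H1650 arrays, at 4.03 and 3.93 on KD and 3.39 and 3.27 on pLKO arrays. It was also below the floor on the H1993 pLKO arrays (3.45 and 4.03). COL1A1 passed in H1993 and H1693, and COL3A1 in H1693 only.

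Promoter windows from RefSeq, 300 bases long with 250 before and 50 after the start in build GRCh38.p14, were available for 28 of the 33 listed genes. TP53INP1, RRM2B, PHLDA3, GADD45A and LIF had none in the table used. Each window was searched for the p53 half-site, which is its own reverse complement and so covers both strands. The full site sought was 2 half-sites with a spacer of at most 13 bases and at most 3 mismatches of 20. In both half-sites of a full site the core C and G had to match exactly. Only the best full site of a window was kept, by the fewest mismatches and then the shortest spacer. A full site was found in 9 of the 28 genes (32.1%), against 15.3% of 27305 genes with a window, and an exact half-site in 5 of the 28 (17.9%), against 8.06%. Those 9 genes were ABCA12, AEN, FDXR, GDF15, MDM2, PLK2, SERPINB5, SESN1 and ZMAT3. The 4 windows printed here belong to genes on which the comparison of lines turns. By the probe sets used, MDM2 was lower after knockdown in H1993 and H1693 and SESN1 higher in both. AEN was of opposite sign in these lines and GDF15 higher in H1693. MDM2 and SESN1 have other windows too, some of which hold neither a half-site nor a full site. Capitals mark the full site that was kept, and each sequence runs 5′ to 3′ on the strand of its gene. A match in these windows is a description and does not show that p53 binds there.
MDM2: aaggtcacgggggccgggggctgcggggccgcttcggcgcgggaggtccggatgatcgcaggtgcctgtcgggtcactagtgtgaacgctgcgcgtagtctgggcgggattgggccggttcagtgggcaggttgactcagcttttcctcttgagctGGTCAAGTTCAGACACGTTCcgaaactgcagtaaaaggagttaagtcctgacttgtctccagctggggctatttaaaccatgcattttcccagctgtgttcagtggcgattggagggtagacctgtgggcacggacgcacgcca
SESN1: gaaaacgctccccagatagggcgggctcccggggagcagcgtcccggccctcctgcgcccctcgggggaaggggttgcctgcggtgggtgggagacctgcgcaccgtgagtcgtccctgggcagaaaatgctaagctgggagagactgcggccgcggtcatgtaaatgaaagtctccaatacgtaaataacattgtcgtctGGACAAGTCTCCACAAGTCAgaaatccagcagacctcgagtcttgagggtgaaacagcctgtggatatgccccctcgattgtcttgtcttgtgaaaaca
AEN: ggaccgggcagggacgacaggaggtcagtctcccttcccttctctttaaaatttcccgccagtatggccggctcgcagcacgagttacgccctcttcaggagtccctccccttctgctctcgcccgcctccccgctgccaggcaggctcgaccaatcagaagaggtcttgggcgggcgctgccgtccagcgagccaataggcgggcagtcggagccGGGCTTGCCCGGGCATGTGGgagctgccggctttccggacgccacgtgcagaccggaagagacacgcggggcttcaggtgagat
GDF15: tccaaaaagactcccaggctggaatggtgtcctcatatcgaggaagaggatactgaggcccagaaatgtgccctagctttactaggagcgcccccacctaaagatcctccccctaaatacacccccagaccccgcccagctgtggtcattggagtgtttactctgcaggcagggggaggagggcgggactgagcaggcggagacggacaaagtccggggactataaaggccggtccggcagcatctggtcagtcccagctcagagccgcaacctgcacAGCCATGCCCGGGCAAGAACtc
The MDM2 window lies at chr12:68808767-68809066 on the plus strand, and its site runs from 94 to 75 bases before that start with 2 mismatches. For SESN1 the window is chr6:109008939-109009238 on the minus strand, with a site 49 to 30 bases before the start and 3 mismatches. The AEN window, chr15:88621090-88621389 on the plus strand, holds a site 34 to 15 bases before the start with 2 mismatches. The GDF15 window, chr19:18385908-18386207 on the plus strand, holds its site 28 to 47 bases after the start with 3 mismatches. In all 4 windows the half-sites adjoin without a spacer.

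More members rose than fell on KD arrays in each line, as did more of all genes tested. In H1650 the shares of members that rose and that fell were both above those of all genes. In H1993, 14 of 31 members rose (45.2%) and 2 fell (6.45%), where 18.9% of all genes tested rose and 14.5% fell. In H1693, 11 rose (35.5%) and 4 fell (12.9%), where 17.1% of all genes rose and 15.9% fell. In H1650, 16 rose (51.6%) and 9 fell (29.0%), where 36.7% of all genes rose and 16.7% fell. A gene counts as risen or fallen where limma's adjusted p over all genes tested is under 0.05. In bulk RNA, a change in the share of cells that express a gene and a change per cell cannot be told apart. Rises made up 68.8% of all calls in H1650 as deposited and 57.7% after quantile normalisation. The median change of the members was 0.17 in H1993, 0.05 in H1693 and 0.30 in H1650 on the log2 scale, beside 0.02, -0.02 and 0.15 for all genes tested. Changes of 1.5-fold or more and past the threshold were fewer. In H1993 5 members were higher and 2 lower by this measure, where 7.47% of all genes were higher and 3.99% lower. In H1693 5 were higher and 0 lower (0 by limma at an unadjusted p under 0.05 too), where 5.55% of all genes were higher and 4.92% lower. In H1650 7 were higher and 6 lower, where 14.4% of all genes were higher and 9.18% lower. Without H1993 KD replicate 1 the count of risen members in H1993 was 9. The count of fallen members in H1693 was 2 without H1693 KD replicate 1 and 1 without H1693 pLKO replicate 1.

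**Figure D1:**
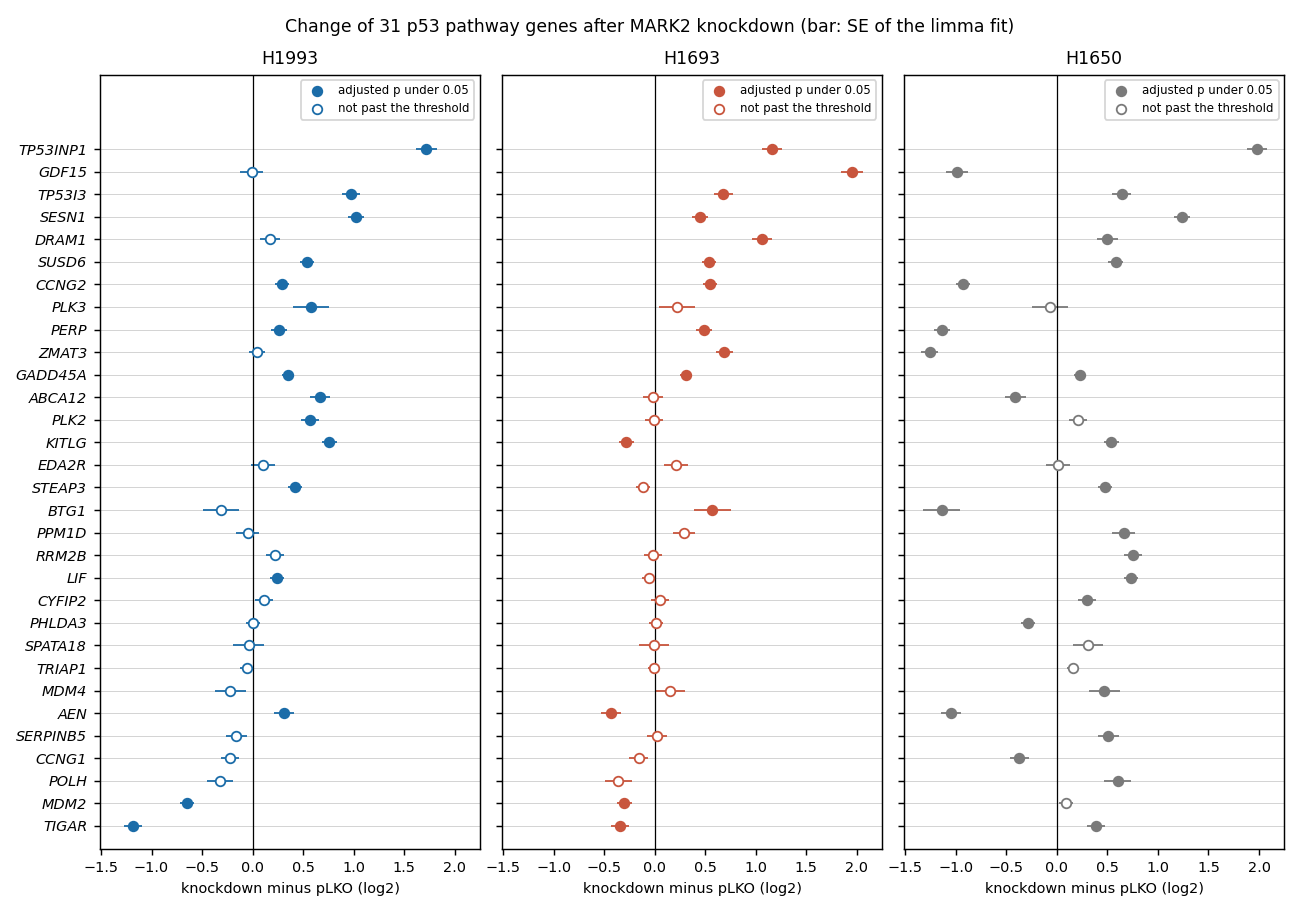
Change of each of the 31 p53 pathway genes in H1993, H1693 and H1650, as KD minus pLKO control on the log2 scale (horizontal axis), ordered down the page by the mean of the H1993 and H1693 changes. Bars are the standard error of the limma fit and filled points are past an adjusted p of 0.05. TP53INP1 lies at 1.72, 1.16 and 1.98, and TIGAR at -1.18, -0.34 and 0.39.

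The 5 members that rose in all 3 lines were TP53INP1, SESN1, TP53I3, SUSD6 and GADD45A, which is 16.1% of the members, where 5.42% of all genes tested rose in all 3. In H1993 and H1693 together, the lines in which MARK2 fell past the threshold, CCNG2 and PERP joined these 5. The resulting 7 are 22.6% of the members, beside 8.38% of all genes. By the probe sets used, MDM2 and TIGAR fell in both lines (6.45% of the members, beside 6.94% of all genes). AEN and KITLG rose in H1993 and fell in H1693 (6.45%, beside 2.80% of all genes). No member fell in all 3 lines (0 of 31 by limma, and 0 at an unadjusted p under 0.05, where 2.23% of all genes did). KD and pLKO arrays did not overlap for 24 members in H1993 (77.4%, beside 63.7% of all genes), 16 of them higher after knockdown (34.7% of all genes) and 8 lower (29%). They did not overlap for 21 members in H1693 (67.7%, beside 69% of all genes), 14 of them higher (32.9% of all genes) and 7 lower (36.1%), and for 28 in H1650 (90.3%, beside 73.5% of all genes), 19 of them higher (51.1% of all genes) and 9 lower (22.4%). By the limma threshold, in either direction, 33.4% of all genes were called in H1993, 33% in H1693 and 53.4% in H1650.

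**Figure D2:**
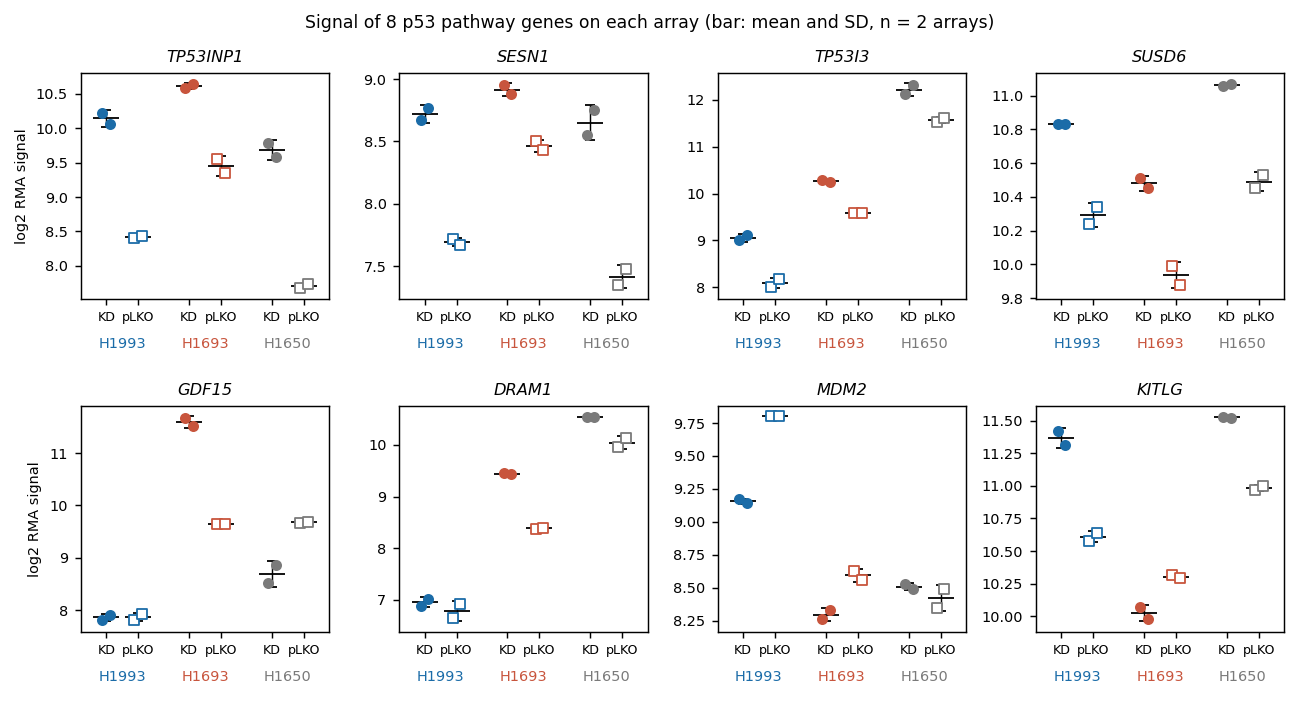
Log2 RMA signal (vertical axis, a separate scale for each gene) of 8 members on every array, with KD arrays as filled circles and pLKO arrays as open squares in H1993, H1693 and H1650. Bars are the mean and SD of the 2 arrays of a group. KD arrays lie above pLKO arrays in all 3 lines for TP53INP1, SESN1, TP53I3 and SUSD6, and GDF15 lies higher on KD than on pLKO arrays in H1693, at 11.67 and 11.52 against 9.65 and 9.64.

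Of the 3 feedback inhibitors, 0 rose and 1 fell in H1993 and in H1693, where 18.9% and 17.1% of all genes rose and 14.5% and 15.9% fell. MDM2, the ubiquitin ligase that marks p53 for degradation and is itself a p53 target, fell in both by the probe set used. In H1993 MDM2 had a log2 signal of 9.17 and 9.14 on KD arrays, against 9.80 and 9.80 on pLKO arrays (change -0.65 ± 0.07 SE, adjusted p = 8.6e-05), which puts the KD signal at 0.639 of the control. In H1693 it had 8.26 and 8.33 on KD arrays, against 8.63 and 8.56 on pLKO arrays (change -0.30 ± 0.07 SE, adjusted p = 0.00774). Neither pair of groups overlapped, and the fall was larger in H1993 than in H1693 (difference of changes -0.35 ± 0.10 SE, adjusted p = 0.0309). In H1650 the groups met at 8.49, with 8.53 and 8.49 on KD arrays against 8.35 and 8.49 on pLKO arrays (change 0.09, adjusted p = 0.306). The H1693 call was lost without H1693 KD replicate 1 (adjusted p = 0.0601) and without H1693 pLKO replicate 1 (adjusted p = 0.062).

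MDM4, the MDM2 relative that blocks p53's activating domain, did not pass the threshold in H1993 or H1693. Its log2 signal in H1993 was 9.24 and 9.02 on KD arrays, against 9.53 and 9.18 on pLKO arrays (change -0.22, adjusted p = 0.32). In H1693 it was 8.60 and 8.88 on KD arrays, against 8.58 and 8.61 on pLKO arrays (change 0.15, adjusted p = 0.524). The groups overlapped in both lines. In H1650 MDM4 had 9.59 and 9.24 on KD arrays, against 8.91 and 8.98 on pLKO arrays, and rose by 0.47 ± 0.15 SE (adjusted p = 0.0236), a call lost without H1650 KD replicate 1, where the change was 0.30 (adjusted p = 0.171), and without either H1650 pLKO array (adjusted p = 0.0968 and 0.058). PPM1D, the phosphatase WIP1 that dephosphorylates p53 and its upstream kinases, changed by -0.05 in H1993 and 0.29 in H1693 without passing the threshold, and rose by 0.66 in H1650 (adjusted p = 0.000538).

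Among the 6 cell cycle and stress kinase genes measured, 4 rose in H1993 and 3 in H1693 (18.9% and 17.1% of all genes), and none fell in either line (14.5% and 15.9% of all genes). In H1650 1 rose and 3 fell, where 36.7% of all genes rose and 16.7% fell. GADD45A, a stress sensor that binds cell cycle and repair proteins, had a log2 signal of 11.48 and 11.44 on H1993 KD arrays, against 11.08 and 11.14 on pLKO arrays (change 0.35 ± 0.06 SE, adjusted p = 0.0023). In H1693 it had 12.84 and 12.91 on KD arrays, against 12.57 and 12.56 on pLKO arrays (change 0.31 ± 0.06 SE, adjusted p = 0.00459). In H1650 it had 12.56 and 12.65 on KD arrays, against 12.35 and 12.40 on pLKO arrays (change 0.23 ± 0.06 SE, adjusted p = 0.0121). The shift was of 1.17-fold to 1.27-fold, small and non-overlapping in each line, and the F test found no difference between the lines (adjusted p = 0.535). The H1650 call was lost without H1650 KD replicate 2 (adjusted p = 0.0645) and without H1650 pLKO replicate 1 (adjusted p = 0.0627).

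CCNG2, an atypical cyclin that accompanies cell cycle arrest, rose in H1993 and H1693 and fell in H1650. Its log2 signal in H1993 was 10.97 and 10.89 on KD arrays, against 10.67 and 10.61 on pLKO arrays (change 0.29 ± 0.07 SE, adjusted p = 0.0104). The H1693 signal was 10.56 and 10.69 on KD arrays, against 10.06 and 10.10 on pLKO arrays (change 0.55 ± 0.07 SE, adjusted p = 0.000295). The H1650 arrays went the other way, at 7.96 and 7.88 after knockdown against 8.83 and 8.86 with pLKO (change -0.93 ± 0.07 SE, adjusted p = 4.77e-06). In H1993 the call was lost without KD replicate 1 (adjusted p = 0.0736) and without pLKO replicate 2 (adjusted p = 0.0672).

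The polo-like kinases PLK2 and PLK3, both stress-induced, rose in H1993. PLK2 had 12.25 and 12.14 on H1993 KD arrays, against 11.62 and 11.64 on pLKO arrays (change 0.57 ± 0.09 SE, adjusted p = 0.00124), and changed by -0.01 in H1693, so that its changes differed between these lines by 0.58 ± 0.13 SE (adjusted p = 0.0127). PLK3 changed by 0.58 ± 0.18 SE in H1993 (adjusted p = 0.0329), a call lost when any 1 of the 4 H1993 arrays was left out (adjusted p = 0.0603 to 0.165), and by 0.22 in H1693 (adjusted p = 0.422). BTG1, an antiproliferative partner of the CCR4-NOT deadenylase, rose by 0.57 ± 0.18 SE in H1693 (adjusted p = 0.0364), where leaving out any 1 H1693 array gave adjusted p = 0.108 to 0.139 and any 1 H1993 array 0.0502 to 0.0517. It fell by 1.14 in H1650 (adjusted p = 0.000474). CCNG1, a cyclin that recruits a phosphatase to MDM2, did not pass the threshold in H1993 or H1693. By the probe set used it fell by 0.37 in H1650 (adjusted p = 0.00738), a call lost without H1650 pLKO replicate 2. The tested CCNG1 probe sets changed by -1.37 to 1.03 in H1650, with calls in both directions.

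In the metabolism, redox and repair group, 3 of 6 measured members rose and 1 fell in H1993, 2 rose and 1 fell in H1693, and all 6 rose in H1650. The shares of all genes that rose and fell were 18.9% and 14.5% in H1993, 17.1% and 15.9% in H1693, and 36.7% and 16.7% in H1650. SESN1, a stress-induced inhibitor of mTORC1 signalling, rose in each line. Its log2 signal was 8.67 and 8.77 on H1993 KD arrays, against 7.72 and 7.67 on pLKO arrays (change 1.02 ± 0.08 SE, 2.03-fold, adjusted p = 1.93e-05). In H1693 it was 8.95 and 8.88 on KD arrays, against 8.50 and 8.43 on pLKO arrays (change 0.45 ± 0.08 SE, 1.37-fold, adjusted p = 0.00252). In H1650 it was 8.55 and 8.75 on KD arrays, against 7.35 and 7.48 on pLKO arrays (change 1.24 ± 0.08 SE, 2.36-fold, adjusted p = 2.46e-06). No groups overlapped. The rise was larger in H1993 than in H1693 by 0.57 ± 0.12 SE (adjusted p = 0.00776), and the KD arrays of the 3 lines lay closer together, at 8.55 to 8.95, than the pLKO arrays, at 7.35 to 8.50.

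TP53I3, a quinone oxidoreductase also called PIG3, likewise rose in every line. H1993 arrays read 9.0 and 9.12 after knockdown, against 8.01 and 8.17 with pLKO (change 0.97 ± 0.09 SE, 1.96-fold, adjusted p = 3.33e-05). H1693 arrays read 10.29 and 10.25 after knockdown, against 9.59 and 9.58 with pLKO (change 0.68 ± 0.09 SE, 1.60-fold, adjusted p = 0.000307). H1650 arrays read 12.12 and 12.31 after knockdown, against 11.53 and 11.61 with pLKO (change 0.64 ± 0.09 SE, 1.56-fold, adjusted p = 0.000201). The F test did not find that these 3 changes differed (adjusted p = 0.087).

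TIGAR, a phosphatase that lowers glycolytic flux and favours the pentose phosphate pathway, had the largest fall among the members in H1993. Its log2 signal there was 7.35 and 7.34 on KD arrays, against 8.53 and 8.52 on pLKO arrays (change -1.18 ± 0.09 SE, adjusted p = 1.24e-05), or 0.441 of the control signal. In H1693 it was 8.57 and 8.73 on KD arrays, against 9.01 and 8.96 on pLKO arrays (change -0.34 ± 0.09 SE, adjusted p = 0.0168). In H1650 it was 10.19 and 10.14 on KD arrays, against 9.65 and 9.91 on pLKO arrays (change 0.39 ± 0.09 SE, adjusted p = 0.00493). The fall in H1993 exceeded that in H1693 (difference -0.84 ± 0.13 SE, adjusted p = 0.00152), and the H1693 call was lost without KD replicate 1 (adjusted p = 0.128) or without either pLKO array (adjusted p = 0.0903 and 0.0595). A second TIGAR probe set moved the other way in H1993 and H1693, as given with the other probe sets below.

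STEAP3, a ferrireductase, rose by 0.42 ± 0.07 SE in H1993 (adjusted p = 0.00127) and by 0.48 in H1650 (adjusted p = 0.00028), and changed by -0.12 in H1693 (adjusted p = 0.245). Its changes in H1993 and H1693 differed by 0.53 ± 0.10 SE (adjusted p = 0.00422). RRM2B, the ribonucleotide reductase subunit used in DNA repair, and POLH, a translesion DNA polymerase, did not pass the threshold in H1993 or H1693. In H1650 RRM2B rose by 0.75 (adjusted p = 9.43e-05) and POLH by 0.60 (adjusted p = 0.00349). POLH changed by -0.32 and -0.36 in H1993 and H1693, with non-overlapping groups in both (adjusted p = 0.0948 and 0.062).

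In the cell death and survival group, 4 of 11 members rose in H1993, 5 rose and 1 fell in H1693, and 4 rose and 4 fell in H1650 (median changes 0.11, 0.21 and 0.16). Over all genes tested, 18.9% rose and 14.5% fell in H1993, 17.1% and 15.9% in H1693, and 36.7% and 16.7% in H1650. TP53INP1, a nuclear and autophagosomal protein that promotes p53-dependent death, had a log2 signal of 10.23 and 10.06 on H1993 KD arrays, against 8.41 and 8.44 on pLKO arrays (change 1.72 ± 0.10 SE, 3.29-fold, adjusted p = 2.27e-06). In H1693 it had 10.58 and 10.64 on KD arrays, against 9.56 and 9.35 on pLKO arrays (change 1.16 ± 0.10 SE, 2.23-fold, adjusted p = 2.42e-05). In H1650 it had 9.79 and 9.58 on KD arrays, against 7.68 and 7.73 on pLKO arrays (change 1.98 ± 0.10 SE, 3.96-fold, adjusted p = 4.7e-07). All KD arrays lay above all pLKO arrays, over the 3 lines together as well as within each. The rise was larger in H1993 than in H1693 by 0.56 ± 0.14 SE (adjusted p = 0.0169).

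SUSD6, a membrane protein that p53 induces and that restrains growth, rose by nearly the same amount in the 3 lines. It had 10.83 and 10.83 on H1993 KD arrays, against 10.24 and 10.34 on pLKO arrays (change 0.54 ± 0.07 SE, adjusted p = 0.000263). H1693 KD arrays read 10.51 and 10.45, against 9.99 and 9.88 on pLKO arrays (change 0.54 ± 0.07 SE, adjusted p = 0.000272). H1650 KD arrays read 11.06 and 11.07, against 10.45 and 10.53 on pLKO arrays (change 0.58 ± 0.07 SE, adjusted p = 8.15e-05). The difference between the H1993 and H1693 changes was 0.00 ± 0.10 SE (adjusted p = 0.991).

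PERP, a desmosomal membrane protein that also takes part in p53-dependent death, rose in H1993 and H1693 and fell in H1650. Its log2 signal was 13.62 and 13.70 on H1993 KD arrays, against 13.39 and 13.41 on pLKO arrays (change 0.26 ± 0.08 SE, adjusted p = 0.0366). In H1693 it was 11.71 and 11.80 on KD arrays, against 11.24 and 11.29 on pLKO arrays (change 0.49 ± 0.08 SE, adjusted p = 0.0015). In H1650 it was 11.34 and 11.50 on KD arrays, against 12.65 and 12.47 on pLKO arrays (change -1.14 ± 0.08 SE, adjusted p = 3.76e-06). The H1993 call was lost when any 1 array of H1993 (adjusted p = 0.0688 to 0.17) or of H1693 (adjusted p = 0.0509 to 0.055) was left out, although its groups do not overlap.

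DRAM1, a lysosomal membrane protein that links p53 to autophagy, and ZMAT3, an RNA-binding zinc finger protein, rose in H1693 and did not pass the threshold in H1993. DRAM1 had 6.88 and 7.02 on H1993 KD arrays, against 6.64 and 6.92 on pLKO arrays (change 0.17, adjusted p = 0.225). In H1693 it had 9.45 and 9.44 on KD arrays, against 8.37 and 8.40 on pLKO arrays (change 1.06 ± 0.10 SE, 2.08-fold, adjusted p = 4.05e-05). In H1650 it had 10.54 and 10.55 on KD arrays, against 9.96 and 10.13 on pLKO arrays (change 0.50 ± 0.10 SE, adjusted p = 0.00185). The changes in H1993 and H1693 differed (-0.89 ± 0.14 SE, adjusted p = 0.00173). ZMAT3 had 9.14 and 8.96 on H1993 KD arrays, against 9.03 and 8.99 on pLKO arrays (change 0.04, adjusted p = 0.749). Its H1693 arrays read 11.12 and 11.24 after knockdown, against 10.51 and 10.47 with pLKO (change 0.69 ± 0.08 SE, 1.61-fold, adjusted p = 0.000178). Its H1650 arrays read 8.08 and 8.21 after knockdown, against 9.38 and 9.44 with pLKO (change -1.26 ± 0.08 SE, adjusted p = 1.91e-06). Thus ZMAT3 was flat in H1993, higher in H1693 and lower in H1650, and the F test for the 3 lines passed (adjusted p = 6.23e-06).

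AEN, a nuclease that fragments DNA during apoptosis, changed in opposite directions in H1993 and H1693. It had 9.23 and 9.33 on H1993 KD arrays, against 8.92 and 9.02 on pLKO arrays (change 0.31 ± 0.10 SE, adjusted p = 0.0389). Its H1693 signal was 8.97 and 9.01 on KD arrays, against 9.41 and 9.42 on pLKO arrays (change -0.43 ± 0.10 SE, adjusted p = 0.00799). In H1650 it fell by 1.05 (adjusted p = 1.94e-05). The difference between the H1993 and H1693 changes was 0.74 ± 0.14 SE (adjusted p = 0.00496), while the H1993 call by itself was lost when any 1 array of H1993 or H1693 was left out (adjusted p = 0.0576 to 0.18). The 5 other members of the group, PHLDA3, TRIAP1, EDA2R, SPATA18 and CYFIP2, did not pass the threshold in H1993 or H1693, and their changes there lay between -0.06 and 0.21. TRIAP1, an inhibitor of apoptosis, did not pass in H1650 either (change 0.16, adjusted p = 0.056). PHLDA3, a repressor of AKT, fell by 0.29 in H1650 (adjusted p = 0.00706), and CYFIP2, a regulator of actin assembly, rose there by 0.30 (adjusted p = 0.019). Both calls were lost without H1650 pLKO replicate 1 (adjusted p = 0.0585 for PHLDA3 and 0.0921 for CYFIP2), and that of CYFIP2 also without H1650 KD replicate 1 (adjusted p = 0.0978). EDA2R, a TNF receptor family member, and SPATA18, a mitochondrial quality control protein, lay within 4.78 to 5.55 on all arrays, next to the testing floor.

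In the secreted and cell surface group, 3 of 5 members rose in H1993, where 18.9% of all genes rose, and 1 rose and 1 fell in H1693, where 17.1% of all genes rose and 15.9% fell. In H1650 3 rose and 2 fell, where 36.7% of all genes rose and 16.7% fell. GDF15, a secreted TGF-beta family stress cytokine, had a log2 signal of 11.67 and 11.52 on H1693 KD arrays, against 9.65 and 9.64 on pLKO arrays (change 1.95 ± 0.11 SE, 3.87-fold, adjusted p = 3.28e-06). In H1993 it had 7.81 and 7.91 on KD arrays, against 7.81 and 7.93 on pLKO arrays (change -0.01, adjusted p = 0.965). In H1650 it had 8.52 and 8.87 on KD arrays, against 9.67 and 9.69 on pLKO arrays (change -0.99 ± 0.11 SE, adjusted p = 5.51e-05). GDF15 gave the largest difference between the H1993 and H1693 changes among the members, -1.96 ± 0.16 SE (adjusted p = 4.3e-05).

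KITLG, the ligand of the receptor tyrosine kinase KIT, rose in H1993 and fell in H1693. Its log2 signal was 11.42 and 11.31 on H1993 KD arrays, against 10.58 and 10.64 on pLKO arrays (change 0.76 ± 0.07 SE, 1.69-fold, adjusted p = 2.72e-05). The H1693 signal was 10.07 and 9.98 on KD arrays, against 10.32 and 10.29 on pLKO arrays (change -0.28 ± 0.07 SE, adjusted p = 0.00868). In H1650 it was 11.53 and 11.52 on KD arrays, against 10.97 and 11 on pLKO arrays (change 0.54 ± 0.07 SE, adjusted p = 9.38e-05). The H1993 and H1693 changes differed by 1.04 ± 0.09 SE (adjusted p = 8.44e-05), and the H1693 call was lost without KD replicate 2 (adjusted p = 0.0741) and without pLKO replicate 1 (adjusted p = 0.0574).

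ABCA12, a lipid transporter of keratinised epithelium, rose in H1993, with 7.15 and 6.90 on KD arrays against 6.47 and 6.24 on pLKO arrays (change 0.67 ± 0.10 SE, 1.59-fold, adjusted p = 0.00078). H1693 arrays read 5.80 and 5.83 after knockdown, against 5.78 and 5.90 with pLKO (change -0.02, adjusted p = 0.903). In H1650 it had 7.44 and 7.45 on KD arrays, against 7.93 and 7.79 on pLKO arrays (change -0.41 ± 0.10 SE, adjusted p = 0.00716), a call lost without pLKO replicate 1 (adjusted p = 0.0538). ABCA12 was thus higher in H1993, within its spread in H1693 and lower in H1650. LIF, a cytokine of the interleukin 6 family, rose by 0.24 ± 0.07 SE in H1993 (adjusted p = 0.0309), a call lost when any 1 of the H1993 arrays was left out. By the probe set used it rose by 0.73 in H1650 (adjusted p = 2.88e-05). The tested LIF probe sets changed by -0.43 to 0.73 there, with calls in both directions. SERPINB5, the serpin called maspin, changed by -0.16 in H1993 (adjusted p = 0.282) and rose by 0.51 in H1650 (adjusted p = 0.00218). On H1693 arrays it was below the testing floor, at 3.72 and 3.96 after knockdown against 3.88 and 3.75 with pLKO.

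The size of the change differed between H1993 and H1693 for 13 members (41.9%), where 22.1% of all genes tested differed. In 6 of the 13 the H1993 change was the lower one (MDM2, ZMAT3, TIGAR, GDF15, BTG1 and DRAM1), and in 7 it was the higher one (TP53INP1, SESN1, PLK2, AEN, KITLG, STEAP3 and ABCA12). Of these, BTG1 changed by -0.31 in H1993 (adjusted p = 0.232) and by 0.57 in H1693, a difference of -0.88 ± 0.25 SE (adjusted p = 0.0351). The F test over the 3 lines passed for 21 members (67.7%), where 54.9% of all genes passed, and for 13 members when H1993 and H1693 alone were compared. The 11 members called in neither H1993 nor H1693 were MDM4, RRM2B, CCNG1, SPATA18, PHLDA3, PPM1D, CYFIP2, EDA2R, POLH, TRIAP1 and SERPINB5. PLK2, PLK3, STEAP3, ABCA12 and LIF passed in H1993 and not in H1693, and ZMAT3, GDF15, BTG1 and DRAM1 passed in H1693 and not in H1993. For PLK3 (0.36, adjusted p = 0.371) and LIF (0.30, adjusted p = 0.0692) the test of the difference did not pass.

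Opposite calls from probe sets of one gene were more frequent in H1650 than in the other lines. The 31 genes hold 102 probe sets, 95 of them tested, and 23 genes have 2 or more tested probe sets. Probe sets of one gene were called in opposite directions for 1 gene in H1993 (CCNG2), 1 in H1693 (MDM2) and 11 in H1650. The 11 were MDM2, MDM4, SESN1, BTG1, CCNG1, CCNG2, PPM1D, KITLG, SERPINB5, LIF and PERP. Each probe set was tested on its own and adjusted over all probe sets. All tested probe sets of a gene were called in the same direction for 2 of the 23 genes in H1993, 4 in H1693 and 4 in H1650. The range of changes within a gene had a median of 0.36 in H1993, 0.37 in H1693 and 1.16 in H1650, on the log2 scale. PLK2 showed the widest range, 6.40 in H1650, where the probe set used changed by 0.21 and the other 3 by -6.19, -4.60 and -2.66. These 3 probe sets changed by 0.28 to 0.46 in H1993, where the GAPDH difference was -0.09 ± 0.05 on KD and -0.10 ± 0.01 on pLKO arrays (SD, n = 2 each).

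MDM2 has 8 tested probe sets. In H1693 that used changed by -0.30, and the second brightest read 7.67 and 7.90 on KD arrays, against 6.34 and 6.5 on pLKO arrays, a change of 1.36 (adjusted p = 7.16e-05). The other 6 did not pass the threshold there. In H1993, 3 of the 8 fell and none rose. The tables used here do not say which transcripts these probe sets read.

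SESN1 gave the same reading from both of its probe sets in H1993 (1.02 and 0.98) and H1693 (0.45 and 0.41), and opposite readings in H1650 (1.24 and -0.66). PERP was higher by all 3 probe sets in H1693 (0.49, 0.49 and 0.86). In H1993 the PERP probe set used did not pass when adjusted over all probe sets (adjusted p = 0.0525), while the other 2 rose by 0.32 and 1.12. GDF15 rose by 4 of 5 probe sets in H1693, by 0.52 to 2.65, and the remaining one changed by 0.85 (adjusted p = 0.0538). DRAM1 rose by both probe sets in H1693 (1.06 and 0.44), whereas in H1993 the second fell by 0.92 and the one used changed by 0.17. TP53INP1 rested on 1 of 2 probe sets in H1993 and H1693, since the dimmer one changed by 0.09 and 0.28 without passing. The second TIGAR probe set changed by 0.19 in H1993 and 0.22 in H1693 without passing, against -1.18 and -0.34 for the one used, and rose by 0.89 in H1650. For CCNG2 in H1993, another probe set rose by 1.44 and a dim one fell by 0.42. For POLH, which was called in neither line by the probe set used, another probe set fell by 0.41 in H1993 (adjusted p = 0.0028) and by 0.58 in H1693 (adjusted p = 0.000404). For STEAP3 in H1693, 2 of 3 probe sets fell, by 0.49 and 0.47, while the one used changed by -0.12. TP53I3, SUSD6, GADD45A, PLK3, AEN and TRIAP1 have 1 probe set each. That of AEN did not pass in H1993 when adjusted over all probe sets (adjusted p = 0.0504), and it passed in H1693 (adjusted p = 0.0108).

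**Figure D3:**
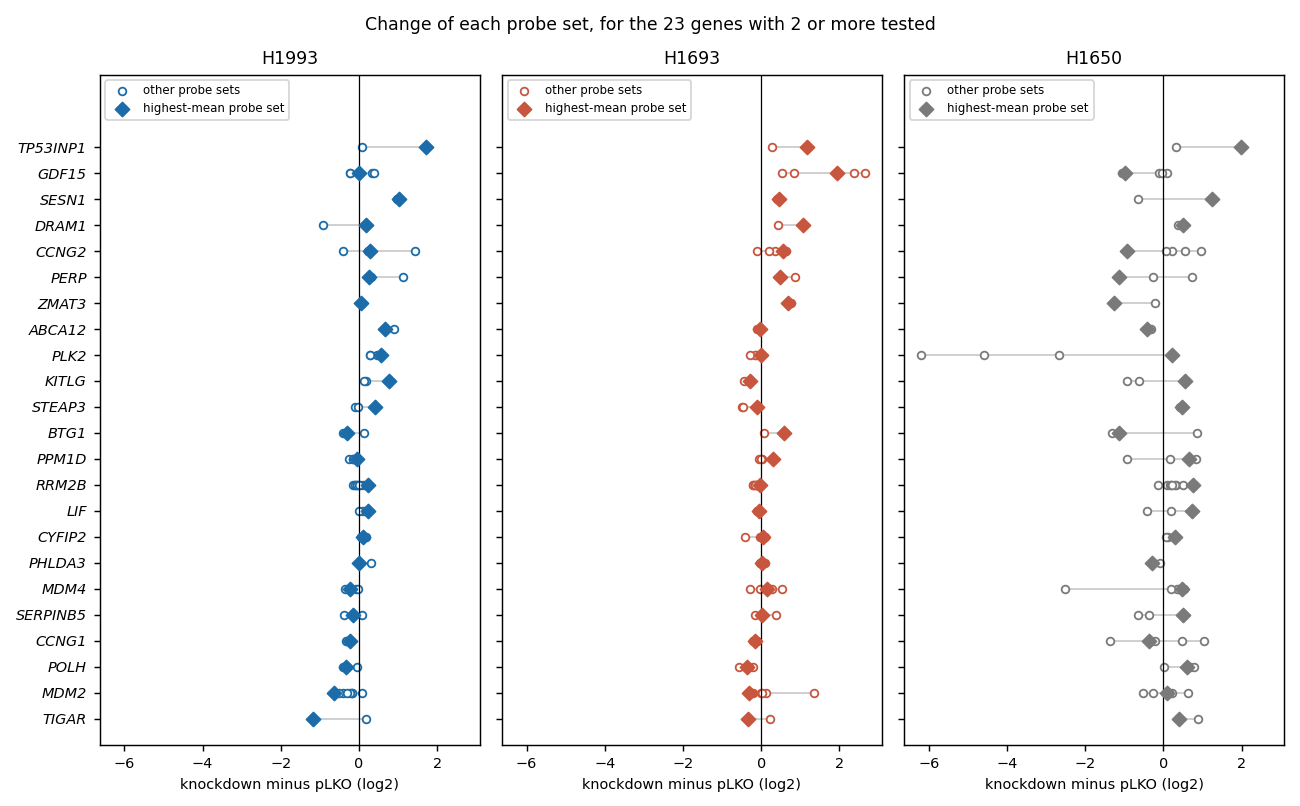
Change (KD minus pLKO control, log2, horizontal axis) of each tested probe set of the 23 members with 2 or more, in H1993, H1693 and H1650. Diamonds are the highest-mean probe sets that stand for the gene, circles the others, and grey lines join the probe sets of a gene. The H1650 panel spreads widest, with PLK2 running over 6.40 log2 units.

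Other genes of the pathway were read from 3 further lists. Of 32 other p53 target genes tested, 17 rose and 5 fell in H1993 (median change 0.20), 8 rose and 4 fell in H1693 (median -0.05), and 13 rose and 8 fell in H1650 (median 0.13). Of all genes, 18.9% rose and 14.5% fell in H1993, 17.1% and 15.9% in H1693, and 36.7% and 16.7% in H1650. The largest changes were a rise of SLC12A4, a potassium chloride cotransporter, in H1993 (8.17 on KD arrays against 6.88 on pLKO arrays, change 1.29, adjusted p = 6.44e-05), a rise of the death receptor gene TNFRSF10B in H1693 (11.88 on KD arrays against 10.75 on pLKO arrays, change 1.13, adjusted p = 1.02e-05) and a fall of the apoptosis effector BAX in H1650 (6.61 on KD arrays against 8.69 on pLKO arrays, change -2.08, adjusted p = 3.27e-06). SLC12A4 also rose in H1693 (0.55) and H1650 (1.25), and TNFRSF10B in H1993 (0.31) and H1650 (0.91). SESN2, the relative of SESN1, passed in every line, with changes of 0.86 in H1993, 1.01 in H1693 and 0.23 in H1650. The proapoptotic PMAIP1 also rose in every line (H1993 0.83, H1693 0.72, H1650 0.58). BBC3, also proapoptotic, rose by 0.66 in H1993 and 0.98 in H1693, and its change of 0.06 in H1650 did not pass. THBS1, an inhibitor of angiogenesis, fell by 0.93 in H1993 and by 0.54 in H1693, with a change of -0.17 in H1650 that did not pass. SFN, the 14-3-3 sigma protein, fell by 0.86 in H1693 and changed by -0.13 in H1993 without passing. In H1650 the death receptor FAS rose by 1.34, its changes of 0.05 in H1993 and -0.15 in H1693 not passing, and ANKRA2 rose by 1.44 there, 0.50 in H1993 and 0.74 in H1693.

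CDKN1A, the cyclin-dependent kinase inhibitor p21, is named after its values were seen. It had a log2 signal of 12.17 and 12.18 on H1993 KD arrays, against 11.50 and 11.59 on pLKO arrays (change 0.63 ± 0.07 SE, 1.55-fold, adjusted p = 8.88e-05). In H1693 it had 11.26 and 11.23 on KD arrays, against 11.37 and 11.26 on pLKO arrays (change -0.07, adjusted p = 0.505), and in H1650 it changed by 0.03 (adjusted p = 0.742). The rise in H1993 exceeded the H1693 change by 0.70 ± 0.10 SE (adjusted p = 0.000865).

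Of 23 p53 regulators tested, 6 rose and 5 fell in H1993, 2 rose and 5 fell in H1693, and 9 rose and 2 fell in H1650. The shares of all genes that rose and fell were 18.9% and 14.5% in H1993, 17.1% and 15.9% in H1693, and 36.7% and 16.7% in H1650. In H1993 the p53 inhibitor PPP1R13L rose by 0.82, TP53BP1 rose by 0.54, the checkpoint kinase CHEK2 fell by 0.72 and the deacetylase SIRT1 fell by 0.71. In H1693 the kinase HIPK2 rose by 1.10, the ubiquitin ligase RCHY1 rose by 0.49, PRKDC fell by 0.88 and CHEK1 fell by 0.85. Of these, CHEK2 and CHEK1 fell in both H1993 and H1693 (CHEK2 by 0.40 in H1693, and by 0.20 in H1650 too, and CHEK1 by 0.37 in H1993), RCHY1 rose in both (0.26 in H1993), and HIPK2 fell by 0.24 in H1993. In H1650 the acetyltransferase KAT5 fell by 2.37, and ATM, RCHY1 and ATR rose by 0.96, 0.87 and 0.55. The cell cycle genes known to be repressed downstream of p53 through p21 and the DREAM complex, which serve mitosis and DNA replication, fell throughout the list in H1993 and H1693, with 14 of 14 lower in both, where 6.94% of all genes fell in both (median change -0.49 in H1993 and -0.84 in H1693). In H1650, 4 of them fell and 2 rose (median -0.08), where 16.7% of all genes fell and 36.7% rose. These genes were listed with earlier results of these data known, so the counts are not independent of those results. CHEK1 is also among the regulators above. Whether p53 or p21 took part in these changes was not tested.

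On the pLKO arrays, the starting levels of nearly all members differed between the lines. The F test over the 3 controls passed for 29 of 31 members (93.5%), where 76.5% of all genes passed. Between H1993 and H1693 29 members differed (63% of all genes), between H1650 and H1693 26 (63%), and between H1993 and H1650 24 (63.8%). The range over the 3 lines had a median of 1.29 on the log2 scale, with 21 members spanning at least 1 and 8 at least 2. The level was highest in H1993 for 10 members, in H1693 for 9 and in H1650 for 12. For 20 of the 31 members both neighbours in the order of lines differed past the threshold. The spans, the highest lines and this order were counted for the members alone, so these counts cannot be set against all genes.

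SERPINB5 spanned the most, at 13.05 and 12.96 in H1993, 10.82 and 11.01 in H1650, and 3.88 and 3.75 in H1693, where it was below the floor. TP53I3 was highest in H1650 (11.57), then H1693 (9.59) and H1993 (8.09), each step past the threshold, and DRAM1 followed the same order (10.05, 8.39 and 6.78). PHLDA3 was highest in H1693 (10.61), then H1650 (9.30) and H1993 (7.50), although it did not pass after knockdown in H1993 or H1693. By the probe set used, MDM2 was highest in H1993 (9.80), then H1693 (8.60) and H1650 (8.42). The second brightest MDM2 probe set put H1650 (9.32) above H1693 (6.42), with H1993 at 9.80. BTG1 was also highest in H1993 (13.11), with H1693 (10.86) and H1650 (10.82) not differing past the threshold (adjusted p = 0.886). By the probe set used, GDF15 was alike in H1650 (9.68) and H1693 (9.65, adjusted p = 0.813) and lower in H1993 (7.87). The second brightest GDF15 probe set also read lowest in H1993 (6.32, against 8.96 in H1693 and 9.38 in H1650). A dimmer one read 7.94 in H1693, 5.54 in H1993 and 3.92 in H1650. The GAPDH 3' minus 5' signal was 2.68 ± 0.56 (SD) on H1650 pLKO arrays, and its part in the control levels was not tested. In TP53INP1 and SESN1 the order was H1693 (9.46 and 8.46), H1993 (8.43 and 7.70) and H1650 (7.70 and 7.41), which is the reverse of the order of their mean changes after knockdown. These changes are measured from the same pLKO arrays, so the 2 orders are not independent.

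**Figure D4:**
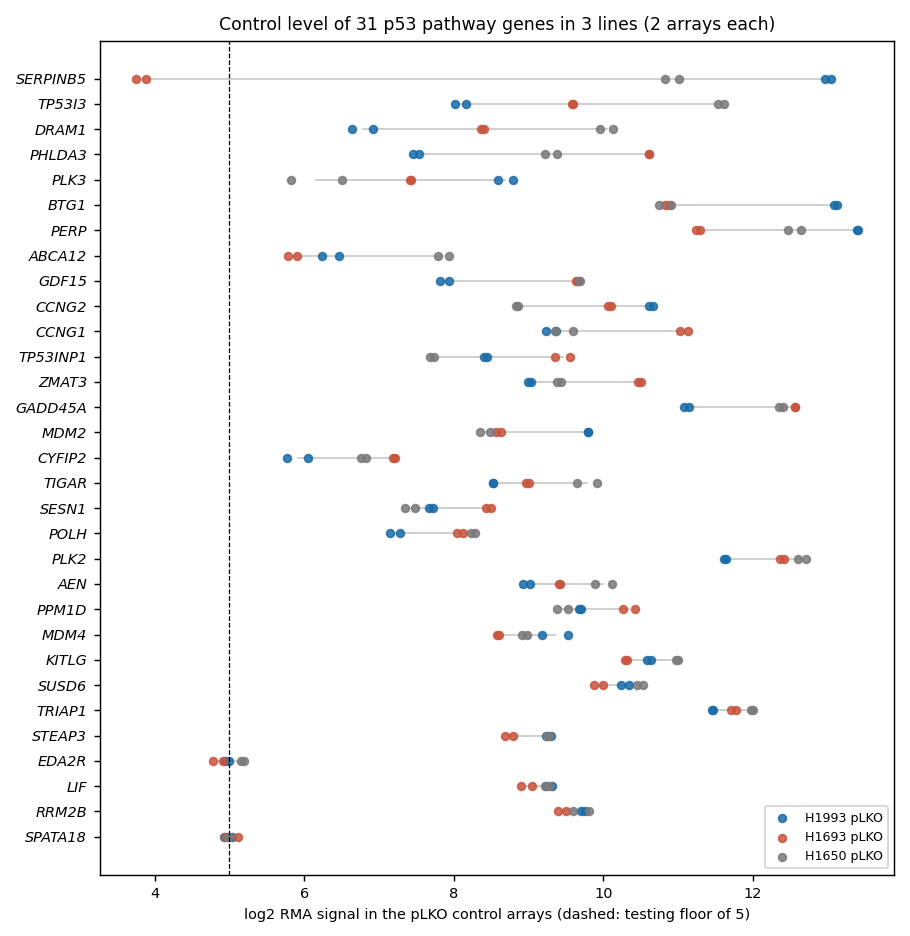
Log2 RMA signal (horizontal axis) of the 31 members on the 2 pLKO control arrays of H1993, H1693 and H1650, ordered by the range over the lines. The dashed line is the testing floor of 5, and grey lines join the lowest and highest line means. SERPINB5 lies at 3.88 and 3.75 in H1693, against 13.05 and 12.96 in H1993.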

How the data were processed

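Biotin-labelled cRNA from 12 samples was hybridised to PrimeView arrays. The authors deposited log2 values. Per the submitters' processing notes, which name no version, they used RMA and Affymetrix Expression Console. RMA removes background, equalises the distributions of the arrays and combines each set's probes into 1 value, and it compresses differences between dim signals. The number of arrays limits the precision.

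Of 49395 probe sets, 44994 have 1 gene symbol in the platform annotation, 1832 have several and 2569 have none. Control probe sets (102) were left out, and 44988 probe sets of 18132 genes were used, 44961 of them matched by gene ID to RefSeq (GRCh38.p14). Each gene was read from its brightest probe set by mean signal, and tested where 2 arrays reached a log2 signal of 5, which 15173 to 15870 genes did on a given array.

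The 12 arrays entered a single linear model of 6 group means (limma 3.58.1 under R 4.3.3, lmFit and eBayes, 6 residual and 3.52 prior degrees of freedom). Contrasts were KD minus pLKO in each line, the difference of the H1993 and H1693 changes, an F test over the 3 lines and the control levels between lines. All tests are two-sided; p-values were adjusted by Benjamini-Hochberg across the 16205 genes, with 0.05 as the threshold. The script was tested on simulated data. Replicate arrays correlated at 0.9952 or more and shared 0.0526% to 0.0992% identical values, so none was a duplicate.

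Genes given with values on every array are those called with one sign in H1993 and H1693, those called in 1 of these lines with a change of 1.5-fold or more, and MDM2, MDM4, TP53INP1 and GDF15. From the other lists, up to 4 called genes per line with the largest change were named. The members, lists and rules were chosen with earlier results of these data known. Alternatives covered the normalisation, the filter, the choice of probe set, the variance prior, separate fits per line, blocks and leaving out each array. Same-numbered KD and pLKO arrays deviated together in H1993 only (correlation 0.286, against -0.176 in H1693 and -0.105 in H1650), so the numbers were not taken as pairs.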

Additional observations from a re-analysis of the deposited data

Results flagged for a closer look

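The change after knockdown differed between H1993 and H1693 for the targeted gene and for 13 of the p53 pathway genes, by a limma test of the difference itself. As the change in H1993 minus that in H1693 on the log2 scale, MARK2 differed by -1.08. Lower in H1993 were GDF15 (-1.96), DRAM1 (-0.89), BTG1 (-0.88), TIGAR (-0.84), ZMAT3 (-0.64) and MDM2 (-0.35). Higher in H1993 were KITLG (1.04), AEN (0.74), ABCA12 (0.69), PLK2 (0.58), SESN1 (0.57), TP53INP1 (0.56) and STEAP3 (0.53). KITLG and AEN changed in opposite directions in these lines. By the probe sets used, TIGAR and MDM2 fell in both by different amounts. The second TIGAR probe set changed by 0.19 in H1993 and 0.22 in H1693 without passing, and another MDM2 probe set rose by 1.36 in H1693. The F test over all 3 lines passed for 21 of the 31 genes.

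Among the other p53 genes named, the same difference was 0.75 for SLC12A4, 0.72 for SFN, 0.70 for CDKN1A, -0.39 for THBS1 and -0.82 for TNFRSF10B. Among the p53 regulators it was 0.77 for PPP1R13L, 0.61 for TP53BP1, 0.47 for CHEK1 and -1.34 for HIPK2. The lines differed in how far MARK2 fell and in the starting level of 29 of the 31 genes, and the part of either in these differences was not tested.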

How the results depend on the processing

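Of 16 members called in H1993, 9 kept their call and direction under all 23 alternatives (ABCA12, GADD45A, MDM2, PLK2, SESN1, SUSD6, TIGAR, TP53I3 and TP53INP1). In H1693 11 of 15 did (AEN, CCNG2, DRAM1, GADD45A, GDF15, PERP, SESN1, SUSD6, TP53I3, TP53INP1 and ZMAT3), and in H1650 9 of 25 under 22 alternatives. The members lower in H1993 numbered 4 after quantile normalisation, 4 with the mean of all probe sets, 5 with the most variable probe set and 4 without the H1650 arrays, a fit added after the data were seen, against 2. The members whose change differed between lines numbered 13 with H1993 and H1693 alone, against 21. Leaving out 1 array at a time, risen members numbered 9 to 14 in H1993, 10 to 12 in H1693 and 13 to 17 in H1650, fallen members 2 to 3, 1 to 5 and 7 to 9, and members whose change differed between H1993 and H1693 9 to 13. Where this left 1 array in a group, that array was assumed to vary like the others.

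Where a change past the threshold in either fit turned its direction, the alternative was another choice of probe set. With the mean of all probe sets DRAM1 in H1993 was at -0.37, and in H1650 MDM4 was at -0.10, PLK2 at -3.31, CCNG2 at 0.18, KITLG at -0.26 and SERPINB5 at -0.17. With the most variable probe set STEAP3 in H1993 was at -0.03, DRAM1 in H1993 at -0.92 and MDM2 in H1693 at 1.36, and in H1650 MDM4 was at -2.52, SESN1 at -0.66, GDF15 at 0.09, PLK2 at -6.19, CCNG2 at 0.55, PPM1D at -0.94, KITLG at -0.94 and PERP at 0.73. The cause was not tested. Quantile normalisation moved the median change of all genes in H1650 to 0.04, against 0.15, and the share of calls that were rises to 57.7%, against 68.8%. In the fit with the replicate number as a block, 11 members rose and 2 fell in H1993, 10 rose and 5 fell in H1693, and 16 rose and 9 fell in H1650; over all genes it called 4834, 4845 and 8398. With crossed pairs in H1693 and H1650, a fit added later, 5688, 5631 and 9012 genes were called. The control levels could not be fitted under the replicate block.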
